A study of Mus musculus with 16 samples.

Results

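The first day of retinoic acid treatment was followed in wild-type E14 cells, an established line of mouse embryonic stem cells, by setting the RNA of cells differentiated for 24 h (WT 24 h) beside the RNA of undifferentiated cells (WT 0 h). The comparison takes every gene with at least 1 RPKM in either of the 2 columns, where RPKM is the read number scaled to gene length and to the total reads of the column. These were 8790 of the 24452 genes in the deposited table, and 7984 of them were protein-coding. The WT 24 h group held 2 samples of wild-type genotype in serum medium with 1 µM all-trans-retinoic acid and without leukemia inhibitory factor (LIF). The WT 0 h group held 2 samples of the same line and genotype in serum medium with LIF and without retinoic acid, on gelatin. The study also sampled both times, 48 h and 72 h in these cells and in a Suz12 knock-out line (Suz12-KO), 16 samples in 8 groups of 2 in all. The Suz12 protein belongs to PRC2, a Polycomb complex that marks silent genes by methylating a histone. Retinoic acid was added and LIF was removed in the same medium change, so that their effects cannot be told apart. The table gives 1 pooled column per group, so no spread between replicate cultures could be computed and no test was made. A gene is called higher or lower here when its scaled level differed at least 2-fold, and bracketed ranges are 95% intervals that cover counting error only.

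Retinoic acid enters the nucleus, where it binds receptors of the Rar and Rxr families that sit on paired core motifs in DNA and turn from repressors into activators of the neighbouring gene. Among the best known genes switched on in this way are those that carry and break down retinoic acid itself, the receptor gene Rarb and the 3′ members of the Hox clusters. Mouse embryonic stem cells kept in LIF and serum hold themselves in a self-renewing state through Stat3 signalling and a network of transcription factors around Pou5f1, Nanog and Sox2, which is taken down as the cells differentiate.

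Stretches just before the transcription starts of the 3 marker genes of this response, Cyp26a1, Rarb and Stra8, are shown because receptors of retinoic acid are known to bind such repeats. The search was for a DR5 element, a direct repeat with 5 bases between core motifs on either strand (the core motif was AGGTCA, or its variant AGTTCA, or the variant GGGTCA, or the variant GGTTCA), in RefSeq promoters of build GRCm38.p6 that span 250 bases before and 50 after each start. The stretches are written 5′ to 3′ on the strand of the gene, with the element in capitals.
Cyp26a1, chr19:37697746-37697797, plus strand: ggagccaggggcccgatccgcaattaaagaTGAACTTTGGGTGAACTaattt
Rarb, chr14:16575507-16575535, minus strand: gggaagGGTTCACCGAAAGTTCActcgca
Stra8, chr6:34920742-34920771, plus strand: gatggggtgaaaAGGTCAtcttgctccttc
Stra8, chr6:34920898-34920927, plus strand: gcctggggtaccAGGTCAgttttttacctg
The Cyp26a1 element lay 32 to 16 bases before the RefSeq start, on the strand opposite to the gene. The Rarb element lay 53 to 37 bases before the start, on the strand of the gene, and inside an exon annotated by GENCODE M21. Stra8 held no DR5 in its window but 2 single AGGTCA core motifs, which are shown instead and which also lie inside an annotated exon.

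The 24 h column rested on 28027373 reads and the 0 h column on 25824216. A single non-coding gene, Gm42418, held 61.7% of reads at 24 h and 65.5% at 0 h. RPKM as deposited divides by all reads, this gene included, and on that scale most of the genes that differed stood higher at 24 h. Levels are given below as deposited, whereas each log2 change was computed after scaling by a median-of-ratios factor (log2 factor -0.02 at 24 h and -0.54 at 0 h), which takes 0.52 off the log2 ratio of RPKM, and then adding 0.5 RPKM to each scaled level, which understates the changes of low genes and leaves less of that shift in them. The median change of all kept genes was then -0.06. Among the 8790, 370 (4.21%) stood at least 2-fold higher at 24 h and 414 (4.71%) at least 2-fold lower. On RPKM as deposited, 833 genes were higher and 187 lower, so that 81.7% of the genes apart were higher, against 47.2% on the scaled values. Among the protein-coding genes, 296 of 7984 (3.71%) were higher and 341 (4.27%) lower, and the difference reached 4-fold in 44 and 49 of them.

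**Figure D1:**
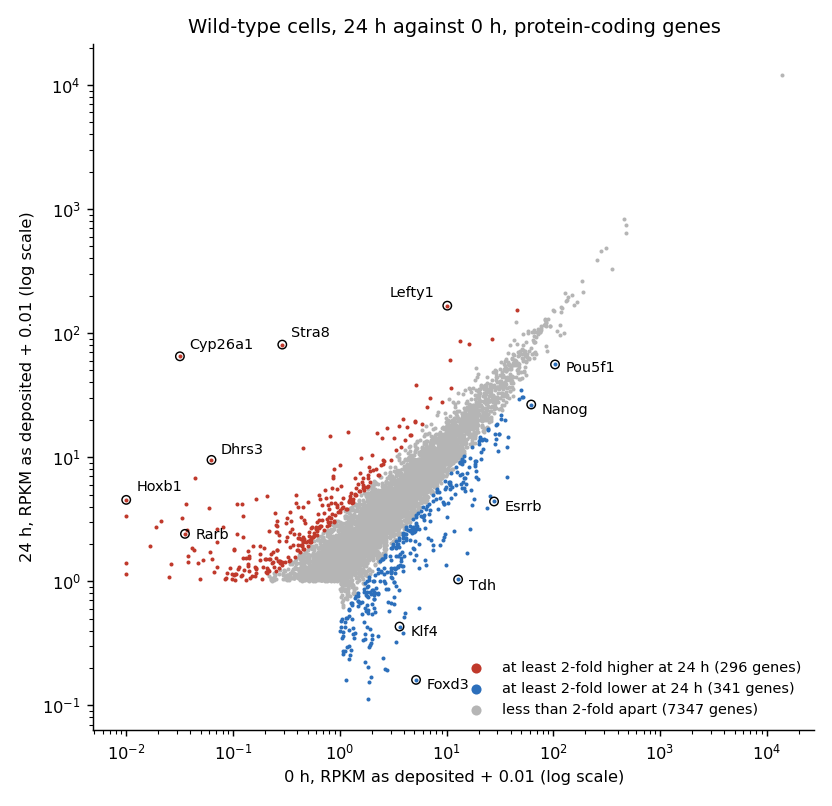
RPKM as deposited of the 7984 protein-coding genes in WT cells at 24 h (vertical axis) and 0 h (horizontal axis), both with 0.01 added and on log scales; red points are the 296 genes at least 2-fold higher at 24 h after scaling and blue points the 341 genes at least 2-fold lower. Cyp26a1, Stra8 and Dhrs3 stand far above the cloud from levels below 0.3 RPKM at 0 h, and Tdh, Foxd3 and Esrrb are labelled below it.

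The protein-coding genes that were higher came mostly from low levels. Their median was 2.77 RPKM at 24 h and 0.446 RPKM at 0 h. Of the 296 genes, 218 were below 1 RPKM at 0 h and 45 of these below 0.1 RPKM. Over all 7984 kept protein-coding genes, 1321 were below 1 RPKM at 0 h and 45 below 0.1 RPKM. A gene below 1 RPKM in 1 column was kept only through its level in the other column. The filter thus favours a rise among genes low at 0 h, and these counts are description only. The genes that were lower all had at least 1 RPKM at 0 h, which the filter requires of a kept gene that fell. Their median was 1.83 RPKM at 24 h and 3.95 RPKM at 0 h, and 117 of the 341 were below 1 RPKM at 24 h but 0 were below 0.1 RPKM. Over all 7984 kept protein-coding genes, 182 were below 1 RPKM at 24 h and 0 below 0.1 RPKM.

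Some of the genes that handle retinoic acid were among those with the largest changes of the day. Cyp26a1, the cytochrome P450 that oxidises and so clears retinoic acid, had 65.0 RPKM at 24 h (62.8 to 67.3, 3229 reads) against 0.0218 RPKM at 0 h (1 read). Its log2 change was 6.97, the highest of all protein-coding genes with at least 50 reads, and the ratio of scaled levels was 2080-fold with a counting interval of 373 to 82184, since the 0 h level rests on 1 read. It ranked 93 of 17158 protein-coding genes by level at 24 h and 13108 at 0 h. Stra8, a gene named for its stimulation by retinoic acid and required for germ cells to enter meiosis, had 80.7 RPKM at 24 h (4076 reads) against 0.280 RPKM at 0 h (13 reads), a 202-fold difference (118 to 380). Dhrs3, a reductase that turns retinaldehyde back into retinol, had 9.50 RPKM at 24 h against 0.0529 RPKM at 0 h (log2 change 4.14).

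A carrier and the uptake receptor for vitamin A stood higher as well. Crabp2, which hands retinoic acid to its nuclear receptors, had 8.07 RPKM at 24 h and 0.879 RPKM at 0 h (log2 change 2.29). Stra6, the membrane receptor that takes up retinol, had 1.90 RPKM at 24 h and 0.00664 RPKM at 0 h (2.25). The enzymes that make retinoic acid were not among them. Aldh1a2 had 0.410 RPKM at 24 h and 0.291 RPKM at 0 h, Aldh1a3 0.155 and 0.151 RPKM, and Rdh10 0.369 and 0.279 RPKM in the same order, all below the level needed to be kept. In the whole list of 17 genes of retinoid metabolism and transport, 5 were higher and 0 lower, where 2.09% of all 24452 genes were higher and 2.35% lower with no filter on level. Lists counted below over all their members are to be read beside these 2 shares. In such short lists, 1 or 2 genes apart are description only. Some genes belong to more than 1 list (490 entries, 468 different symbols), so the counts of different lists are not separate observations.

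Among 13 nuclear receptors and corepressors, Rarb and Nr6a1 were higher and 0 were lower. Rarb, a retinoic acid receptor that is itself a classic target of retinoic acid, had 2.40 RPKM at 24 h (2.08 to 2.75, 204 reads) against 0.0255 RPKM at 0 h (2 reads), a log2 change of 2.45 and a ratio of 65.7 (18.0 to 546). Rarb overlaps Top2b on the other strand. Nr6a1, an orphan receptor known to repress Pou5f1 during differentiation, had 19.4 RPKM at 24 h and 5.02 RPKM at 0 h (1.37). The receptors already present moved little by comparison. Rara had 5.92 RPKM at 24 h and 4.25 RPKM at 0 h (log2 change -0.04, though above 0 on RPKM as deposited). Rarg had 9.45 RPKM at 24 h and 11.7 RPKM at 0 h (-0.79). In these cells at 24 h Rarg was thus still the receptor of the Rar family with the highest RPKM, with Rarb the lowest of the 3.

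Of 8 genes first described as stimulated by retinoic acid in embryonal carcinoma cells, 5 were higher: Stra8, Lefty1, Efnb1, Stra6 and Meis2. Efnb1, an ephrin ligand at the cell surface, had 4.18 RPKM at 24 h and 0.112 RPKM at 0 h (log2 change 2.84). The other members, Bhlhe40, Gbx2 and Tfap2c, had changes of 0.16, 0.15 and 0.09. Rec8, a meiotic cohesin subunit, was the other higher member of the 16 germline genes beside Stra8, with 3.54 RPKM at 24 h and 0.240 RPKM at 0 h (2.27). The meiotic genes Sycp1, Sycp2 and Sycp3 stayed at 0.0208, 0.0179 and 0.593 RPKM at 24 h, against 0.0451, 0.0130 and 0.429 RPKM at 0 h.

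The Hox genes, which give cells their position along the body axis, had hardly any reads at 0 h and gained them mainly in the HoxA and HoxB clusters at 24 h. All 37 Hox genes in the table together had 1917 reads at 24 h and 17 reads at 0 h, and 34 of them had at least 1 read at 24 h against 12 at 0 h. Hoxb1 had 4.52 RPKM at 24 h (294 reads) and no read at 0 h, which makes it at least 63.1-fold higher when 3 reads are taken as the limit of a count of 0. Hoxa5 had 3.35 RPKM at 24 h (176 reads) and no read at 0 h, at least 37.8-fold higher by the same limit. Hoxb2 followed with 3.07 RPKM at 24 h and 0.0111 RPKM at 0 h.

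The levels did not fall off evenly along a cluster. Hoxa2 and Hoxa3 had 0.309 and 0.397 RPKM at 24 h, below Hoxa4 with 1.14 RPKM and Hoxa5 with 3.35 RPKM. In HoxB, Hoxb3 had 0.439 RPKM at 24 h, below Hoxb4 with 1.39 RPKM, and Hoxb9 still had 1.08 RPKM (78 reads). The counting interval of Hoxa5 (2.87 to 3.88 RPKM) lay apart from that of Hoxa4. HoxC and HoxD genes stayed low, with 43 and 36 reads at 24 h over 9 and 7 genes, against 4 and 7 reads at 0 h. On the scale with 0.5 RPKM added, 10 of the 37 passed 2-fold upward and 0 downward, and the 7 that reached 1 RPKM did so at 24 h alone. Hoxa4 and Hoxa5 both lie within the span of Hoxa3. Hoxa5 overlaps Hoxa3 on the same strand and Hoxaas3 on the other. The sources used here do not say whether reads were assigned by strand, so reads of overlapping genes cannot be told apart.

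**Figure D2:**
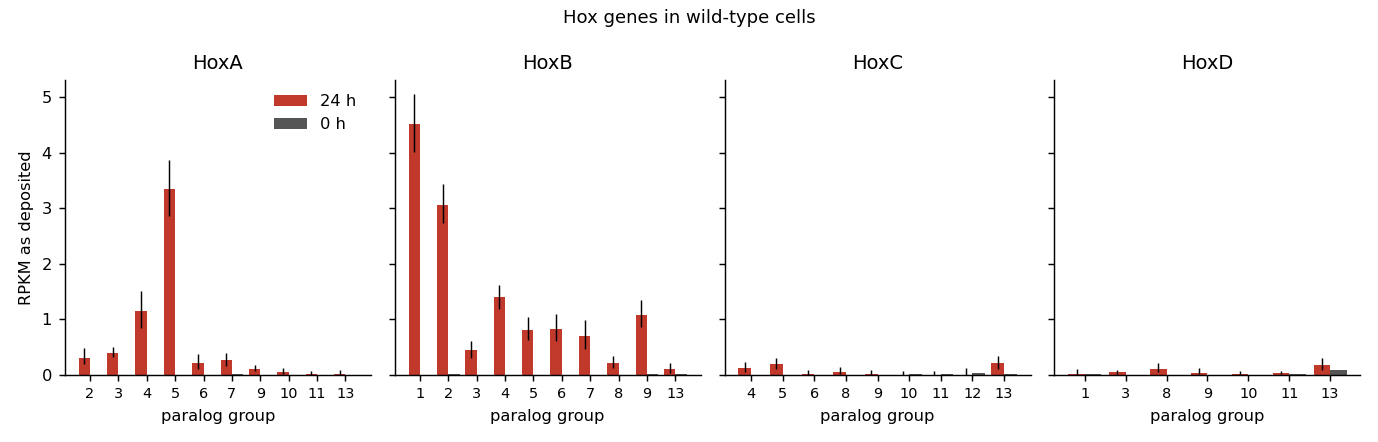
RPKM as deposited of the Hox genes described in WT cells by cluster and paralog group, with 24 h in red (bars with 95% counting intervals) and 0 h in grey. At 24 h Hoxb1 reached 4.52, Hoxa5 3.35 and Hoxb2 3.07 RPKM, and the 0 h bars are hardly visible.

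Partners and upstream regulators of Hox genes were higher in 4 of 11 cases, with 0 lower, where 2.09% of all genes were higher with no filter. Pbx2, a homeodomain partner of Hox proteins, had 14.3 RPKM at 24 h and 3.23 RPKM at 0 h (log2 change 1.53). Meis2, another such partner, had 1.47 RPKM at 24 h and 0.0421 RPKM at 0 h (1.83). Cdx1, a caudal factor that activates Hox genes and responds directly to retinoic acid, had 4.83 RPKM at 24 h and 0.199 RPKM at 0 h (2.78). Its relatives stayed below 1 RPKM. Cdx2 had 23 reads at 24 h and 3 at 0 h, a ratio of 4.94 (1.49 to 25.7), and Cdx4 had 0 reads at 24 h and 1 at 0 h.

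**Figure D3:**
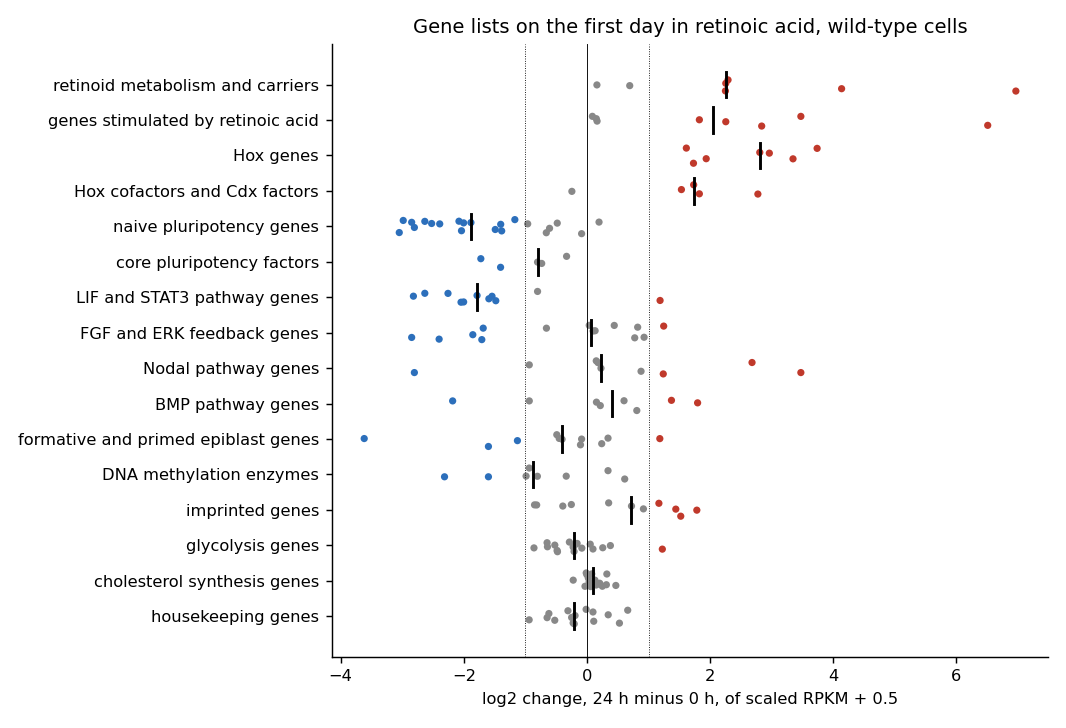
The log2 change, 24 h minus 0 h, of scaled RPKM with 0.5 added, for each kept gene of 16 lists in WT cells; each point is a gene, the black bar is the list's median and dotted lines mark 2-fold. Kept members of the retinoid, stimulated and Hox lists reach from near 0 to 6.97, the naive list and the LIF and STAT3 list have medians of -1.88 and -1.78, and cholesterol synthesis genes cluster around 0.10.

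The pluripotency network was partly taken down after 24 h, and its members did not move alike. Of the 5 core factors, Nanog and Pou5f1 were lower. Nanog had 26.6 RPKM at 24 h and 62.1 RPKM at 0 h (log2 change -1.72), and Pou5f1 had 55.9 RPKM at 24 h and 104 RPKM at 0 h (-1.40). At 24 h Pou5f1 still ranked 123 among protein-coding genes by level, against 25 at 0 h. Sox2 had 18.2 RPKM at 24 h and 21.4 RPKM at 0 h (-0.73), Sall4 9.88 RPKM at 24 h and 12.3 RPKM at 0 h (-0.80), and Lin28a 40.1 RPKM at 24 h and 35.4 RPKM at 0 h (-0.33, or 0.18 on RPKM as deposited).

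The genes of the naive state were lower far more often. All 21 members of that list were kept, 15 were lower and 0 higher, where 4.71% of all kept genes were lower, and the median change was -1.88 against -0.06 over all kept genes. Esrrb, an orphan nuclear receptor that sustains self-renewal, had 4.38 RPKM at 24 h (743 reads) and 27.9 RPKM at 0 h (4350 reads), 9.09-fold lower (8.41 to 9.84). Nr0b1, a repressor that binds Pou5f1 and Esrrb, had 3.91 RPKM at 24 h and 24.0 RPKM at 0 h (log2 change -2.98). Klf4, a reprogramming factor downstream of Stat3, had 0.421 RPKM at 24 h and 3.62 RPKM at 0 h (-2.63), whereas its relative Klf2 had 11.0 RPKM at 24 h and 20.9 RPKM at 0 h (-1.40). Zfp42, also called Rex1, had 12.0 RPKM at 24 h and 36.5 RPKM at 0 h (-2.08).

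Some genes counted with the naive state were less than 2-fold apart. Dppa5a, an RNA-binding protein of stem cells, had 209 RPKM at 24 h and 128 RPKM at 0 h (log2 change 0.20). Dppa2 had 12.8 RPKM at 24 h and 9.54 RPKM at 0 h (-0.09, or 0.41 on RPKM as deposited), and its partner Dppa4 had 7.75 RPKM at 24 h and 8.43 RPKM at 0 h (-0.61). Gdf3, a ligand of the transforming growth factor family, had 11.8 RPKM at 24 h and 11.7 RPKM at 0 h (-0.48, though just above 0 on RPKM as deposited).

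Genes that mark the formative and primed epiblast, the states that follow the naive one in the embryo, had no common direction. Of 14 genes, 2 were higher and 3 lower, where 2.09% of all genes were higher and 2.35% lower with no filter. Sox4 had 4.61 RPKM at 24 h and 1.23 RPKM at 0 h (log2 change 1.18), and Sox3 had 0.848 RPKM at 24 h and 0.113 RPKM at 0 h (1.04). Foxd3, a forkhead factor of stem cells and of the neural crest, had 0.150 RPKM at 24 h (10 reads) and 5.17 RPKM at 0 h (317 reads), 49.2-fold lower (26.4 to 104). Otx2 had 0.389 RPKM at 24 h and 1.00 RPKM at 0 h (-1.13). Fgf5, a defining marker of the primed epiblast, had 0.300 RPKM at 24 h and 0.0310 RPKM at 0 h.

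Targets and components of LIF and Stat3 signalling were lower in 9 of 12 cases, with 1 higher, where 2.35% of all genes were lower with no filter. Socs3, the feedback inhibitor that Stat3 induces, had 0.370 RPKM at 24 h and 3.91 RPKM at 0 h (log2 change -2.82). Stat3 itself had 1.44 RPKM at 24 h and 3.73 RPKM at 0 h (-1.59), and Lifr, the LIF receptor, 0.998 RPKM at 24 h and 2.56 RPKM at 0 h (-1.48). Myc had 1.27 RPKM at 24 h and 5.56 RPKM at 0 h (-2.26). The exception was Pim1, a kinase counted among the Stat3 targets, with 36.1 RPKM at 24 h and 10.9 RPKM at 0 h (1.19).

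Of 15 genes of fibroblast growth factor signalling, 1 was higher and 5 were lower: Fgf4, Spry4, Etv5, Etv4 and Spry2. With no filter, 2.09% of all genes were higher and 2.35% lower. Fgf4, the ligand through which stem cells drive their own differentiation, had 6.88 RPKM at 24 h and 36.7 RPKM at 0 h, 7.64-fold lower (6.98 to 8.36). Spry4, a feedback inhibitor of the pathway, had 1.96 RPKM at 24 h and 8.71 RPKM at 0 h (log2 change -2.40), and Etv5, a transcription factor induced by the pathway, 14.4 RPKM at 24 h and 37.3 RPKM at 0 h (-1.85). Dusp5, a phosphatase that acts on Erk, was the higher member, with 3.49 RPKM at 24 h and 0.830 RPKM at 0 h (1.25). Dusp6, another such phosphatase, had 18.6 RPKM at 24 h and 7.22 RPKM at 0 h (0.82, below 2-fold after scaling).

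Within the Nodal pathway the antagonists and the coreceptor went opposite ways. Lefty1, a secreted Nodal antagonist, had 166 RPKM at 24 h (8196 reads) and 10.2 RPKM at 0 h (461 reads), 11.5-fold higher (10.4 to 12.6), and ranked 18 among protein-coding genes at 24 h against 1052 at 0 h. Lefty2 had 9.33 RPKM at 24 h and 2.57 RPKM at 0 h (log2 change 1.24). Tdgf1, the coreceptor also called Cripto, had 4.82 RPKM at 24 h and 25.6 RPKM at 0 h (-2.80). The ligand Nodal had 13.9 RPKM at 24 h and 8.54 RPKM at 0 h (0.18). In all, 3 of 11 genes of the pathway were higher and 1 lower.

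In the bone morphogenetic protein pathway 2 of 13 genes were higher and 1 lower, where 2.09% of all genes were higher and 2.35% lower with no filter. Msx1, a homeobox gene induced by these ligands, had 1.41 RPKM at 24 h and 0.0375 RPKM at 0 h (log2 change 1.80), and Id2, an inhibitor of bHLH factors, had 19.6 RPKM at 24 h and 5.09 RPKM at 0 h (1.37). Its relatives Id1 and Id3 had changes of 0.22 and 0.15. The ligand Bmp4 had 0.193 RPKM at 24 h (12 reads) and 1.83 RPKM at 0 h (105 reads), a change of -2.18. Of 12 Wnt pathway targets, 0 were higher, and Ccnd1 and Notum were lower. Ccnd1, which encodes cyclin D1, had 3.29 RPKM at 24 h and 10.0 RPKM at 0 h (-1.97), and Notum, a secreted Wnt inhibitor, 0.904 RPKM at 24 h and 3.38 RPKM at 0 h (-1.93).

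Few markers of differentiated lineages were 2-fold apart at this time, and many were low, but not all. The 20 endoderm markers summed to 34.3 RPKM at 24 h and 30.6 RPKM at 0 h. The highest level of any of them was 15.3 RPKM at 24 h and 17.2 RPKM at 0 h. Of 20 endoderm markers, the pioneer factors Foxa2 and Foxa1 were higher, with log2 changes of 1.84 and 1.63, while Gata4, Gata6 and Sox17 had 9, 3 and 1 reads at 24 h against 6, 0 and 0 reads at 0 h. Lama1, a laminin chain, was lower, with 1.18 RPKM at 24 h and 2.77 RPKM at 0 h (log2 change -1.42). Of 18 neural markers, Sox1 was higher (1.03 RPKM at 24 h and 0.0882 RPKM at 0 h) and the tubulin Tubb3 lower (4.72 RPKM at 24 h and 11.1 RPKM at 0 h). The neural factor Pax6 had 0.974 RPKM at 24 h and 0.356 RPKM at 0 h. Of 12 genes of the primitive streak, where mesoderm forms, Wnt8a was higher (3.58 RPKM at 24 h and 0.333 RPKM at 0 h), as was Eomes on the unfiltered scale (0.756 RPKM at 24 h and 0.0559 RPKM at 0 h). The streak factors T and Mixl1 had 6 and 8 reads at 24 h against 0 and 1 reads at 0 h.

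The label of embryonic stem cells was borne out by Pou5f1, Nanog, Sox2, Zfp42 and Esrrb, which all exceeded 20 RPKM at 0 h. Markers of fibroblasts, a possible source of other RNA in stem cell culture, were low but had more reads at 24 h (326) than at 0 h (80). The highest level of any of them was 1.02 RPKM at 24 h and 0.469 RPKM at 0 h. The 1 member that was kept had a log2 change of 0.91. The 15 genes of that list summed to 2.40 RPKM at 24 h and 0.900 RPKM at 0 h, 12 of them had a read at 24 h against 6 at 0 h, and Col3a1, Postn and Lum had no read in either column. Of 12 trophoblast markers, 1 was higher (Eomes, named above) and 0 lower, with Elf5 at 5 reads at 24 h against 1 at 0 h. Of 12 smooth-muscle genes 1 was higher and 0 lower, and of 16 epithelial and mesenchymal genes 0 were higher and 1 lower. The 13 genes of the 2-cell-like state summed to 3.61 RPKM at 24 h and 0.402 RPKM at 0 h, with 0 of them 2-fold apart. In these pooled cultures, fewer cells that express a gene and less RNA of it per cell cannot be told apart.

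Regulators of the cell cycle changed in both directions. Of 14 cyclins, kinases and inhibitors of the G1 phase, Ccnd2 (7.90 RPKM at 24 h and 2.02 RPKM at 0 h, log2 change 1.31) and the inhibitor Cdkn1c (13.8 RPKM at 24 h and 4.09 RPKM at 0 h, 1.17) were higher. Ccnd1, Ccne1 and Cdk6 were lower. Ccne1, cyclin E1, had 13.8 RPKM at 24 h and 23.7 RPKM at 0 h (-1.26), and Cdk6 had 2.06 RPKM at 24 h and 3.91 RPKM at 0 h (-1.25). The cyclin D genes Ccnd1 and Ccnd2 therefore stood in opposite order at the 2 times, with Ccnd2 above Ccnd1 at 24 h and below it at 0 h.

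Enzymes that write and remove DNA methylation were lower in 2 of 8 cases, where 2.35% of all genes were lower with no filter. Tet1, a dioxygenase that oxidises methylcytosine, had 1.77 RPKM at 24 h and 7.51 RPKM at 0 h (log2 change -2.31), and the methyltransferase Dnmt3b had 8.46 RPKM at 24 h and 18.6 RPKM at 0 h (-1.60). Of 11 PRC2 genes 1 was lower, Eed, the subunit that binds methylated histone H3, with 9.38 RPKM at 24 h and 18.8 RPKM at 0 h (-1.47). Suz12 had 2.58 RPKM at 24 h and 2.94 RPKM at 0 h (-0.61), and Ezh2, the catalytic subunit, 5.41 RPKM at 24 h and 4.42 RPKM at 0 h (-0.21, or 0.26 on RPKM as deposited).

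Imprinted genes, which are read from 1 parental copy, were higher in 4 of 21 cases with 0 lower. With no filter, 2.09% of all genes were higher. Peg10 had 81.3 RPKM at 24 h (15197 reads) and 16.3 RPKM at 0 h (2800 reads), a log2 change of 1.78. Its neighbour Sgce had 1.24 RPKM at 24 h and 0.100 RPKM at 0 h (1.44). Ndn, a growth suppressor of neurons, had 4.10 RPKM at 24 h and 0.774 RPKM at 0 h (1.52), and Cdkn1c was the fourth.

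General metabolism was near the middle of all genes. Of 16 cholesterol synthesis genes, 0 were 2-fold apart, and their median change was 0.10. Of 18 glycolysis genes, 1 was higher, the glucose transporter Slc2a1, which had 154 RPKM at 24 h and 45.8 RPKM at 0 h (log2 change 1.22) and ranked 21 among protein-coding genes at 24 h against 112 at 0 h. The median of the glycolysis list was -0.21, or 0.29 on RPKM as deposited, and Slc2a3, a second glucose transporter, had 97.7 RPKM at 24 h and 52.4 RPKM at 0 h (0.38). Of 12 genes of the integrated stress response, Ddit4, an inhibitor of mTOR signalling, was the 1 that was higher (20.4 RPKM at 24 h and 3.93 RPKM at 0 h, 1.77). Of 16 p53 targets, 1 was higher, Phlda3 (log2 change 1.19), where 2.09% of all genes were higher with no filter. Of 15 immediate early genes, 0 were higher, and Junb and Nr4a1 were lower, with log2 changes of -1.78 and -1.84. Of 9 abundant structural RNAs 0 were 2-fold apart. The 16 housekeeping genes held 0 genes 2-fold apart and had a median of -0.21 over those kept, or 0.27 on RPKM as deposited.

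Further genes stood among the 15 protein-coding genes with the largest and the 15 with the smallest changes. Prtg, an immunoglobulin-type receptor of the early embryo, had 11.8 RPKM at 24 h and 0.447 RPKM at 0 h (log2 change 3.44). Serpinh1, the chaperone of newly made collagen, had 14.7 RPKM at 24 h and 0.795 RPKM at 0 h (3.22), and Mrc2, an endocytic receptor for collagen, 4.20 RPKM at 24 h and 0.0986 RPKM at 0 h (2.89). Arg1, the arginase of the urea cycle, had 4.21 RPKM at 24 h (174 reads) and 0.0262 RPKM at 0 h (1 read), with a change of 3.15. Greb1l, the histone gene Hist3h2ba and Ap3b2, a subunit of a neuronal adaptor complex, had changes of 2.96, 2.92 and 2.83.

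On the other side, Tdh and Foxd3 had the lowest changes, -3.64 and -3.62, and with 0.1 RPKM added in place of 0.5 the order turned (-4.04 for Tdh and -4.91 for Foxd3). Tdh, a mitochondrial threonine dehydrogenase that mouse stem cells use to break down threonine, had 1.02 RPKM at 24 h (75 reads) and 12.8 RPKM at 0 h (866 reads), 17.9-fold lower (14.1 to 23.0). Mycn, a Myc family factor, had 1.67 RPKM at 24 h and 15.6 RPKM at 0 h, 13.4-fold lower (11.3 to 15.9). Hmces, which shields abasic sites in DNA, had 2.61 RPKM at 24 h and 16.5 RPKM at 0 h (log2 change -2.96). The gap junction gene Gjb5 had 0.311 RPKM at 24 h and 3.33 RPKM at 0 h. Spink1, Krt42 and Msc had changes of -2.98, -2.72 and -2.66.

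Long non-coding genes were higher in 5 of the 118 kept and lower in 14, where 4.21% of all kept genes were higher and 4.71% lower. The count of higher genes is thus near the share over all kept genes. Hotairm1, a transcript of the HoxA cluster, had 5.92 RPKM at 24 h (170 reads) and 0.0756 RPKM at 0 h (2 reads), a log2 change of 3.42. Halr1 had 4.05 RPKM at 24 h and 0.843 RPKM at 0 h (1.42). Gm16344 and A930024E05Rik had changes of 1.44 and 1.32. A530040E14Rik, the fifth by change among those with at least 50 reads, had 0.84 and was not 2-fold apart. The lowest changes were those of 2310043M15Rik (-2.82), Gm15912 (-2.60), Gm14820 (-2.49), Gm16096 (-1.59) and Snhg20 (-1.47). Gm16344 overlaps Myo7b, Gm14820 overlaps Suv39h1 and 2310043M15Rik overlaps Dop1b on the other strand.

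The levels after the first day showed that a change at 24 h could be brief or lasting. Of the 296 protein-coding genes that were higher at 24 h, 82 had their highest scaled level of the 4 times at 24 h, 83 at 48 h and 131 at 72 h. Because the genes were chosen at 24 h, these numbers describe them and test nothing. Lefty1 had 10.2, 166, 9.98 and 0.387 RPKM at 0, 24, 48 and 72 h, and Cdx1 had 0.199, 4.83, 2.17 and 0.454 RPKM. Wnt8a had 0.333, 3.58, 1.13 and 0.0433 RPKM over the same times, and Stra8 had 0.280, 80.7, 44.5 and 11.7 RPKM. Cyp26a1 had 0.0218, 65.0, 50.4 and 28.7 RPKM. These genes were high at 24 h and lower at both later times.

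Others were higher still after 24 h. Rarb had 0.0255, 2.40, 9.18 and 8.84 RPKM at 0, 24, 48 and 72 h, and Serpinh1 had 0.795, 14.7, 40.1 and 76.1 RPKM. Among the lower genes, 140 of 341 had at 72 h at most 0.5 times their scaled level at 24 h, as did Pou5f1 with 104, 55.9, 3.64 and 0.319 RPKM and Nanog with 62.1, 26.6, 2.71 and 0.894 RPKM. In 41 of the 341 the level at 72 h was at least double that at 24 h. Mycn was one of them, with 15.6, 1.67, 9.53 and 12.1 RPKM, and Stat3 was another, with 3.73, 1.44, 1.79 and 4.09 RPKM.

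**Figure D4:**
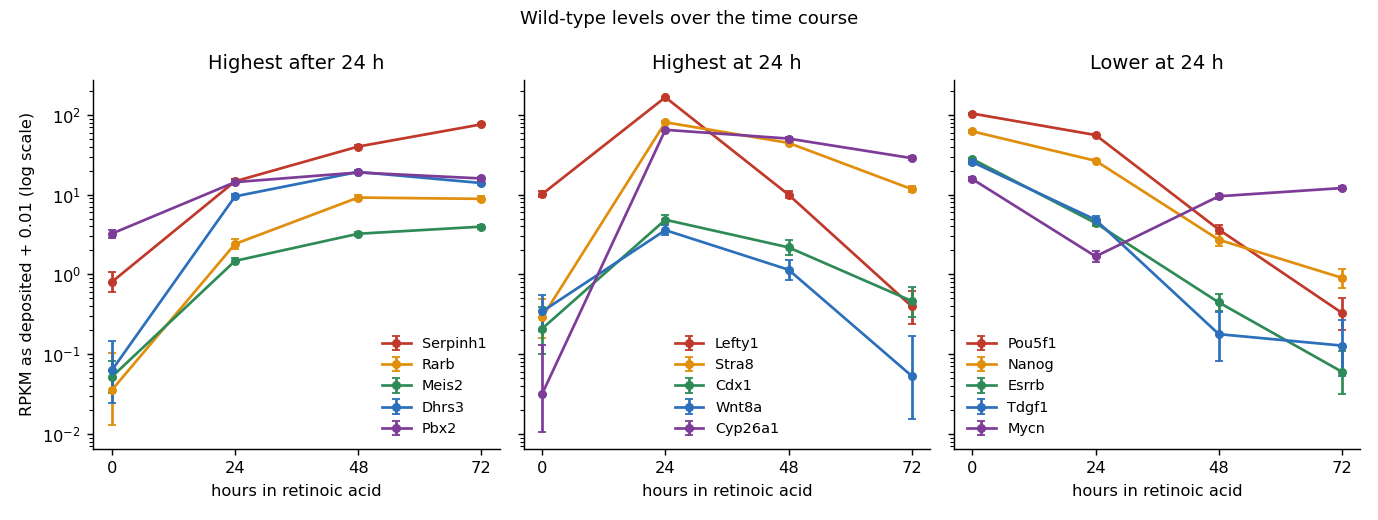
RPKM as deposited (with 0.01 added, log scale) of 15 genes in WT cells at 0, 24, 48 and 72 h, with 95% counting intervals as bars. The first panel shows genes highest after 24 h, such as Serpinh1 at 76.1 RPKM at 72 h, the second genes highest at 24 h, such as Lefty1 at 166 RPKM, and the third genes lower at 24 h, of which Mycn stood at 12.1 RPKM at 72 h.

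The Suz12-KO cells gave a separate pair of columns for the same day, with no library in common. Of the 296 protein-coding genes higher in WT cells, 232 (78.4%) were also higher by that measure in the knock-out, and they made up 55.4% of the 419 genes higher there (5.25% of all 7984). Of the 341 lower genes, 242 (71.0%) were also lower in the knock-out, 63.2% of the 383 genes lower there (4.8% of all). At least 2-fold changes the other way in the knock-out were found for 0 of the 296 and 0 of the 341 genes. Across the 7984 genes the changes of both lines had a Pearson correlation of 0.87 and a Spearman correlation of 0.82, given as a description since genes are not independent replicates and all columns were scaled together.

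Named genes of the response appeared in both lines. Cyp26a1 had 65.0 RPKM at 24 h in WT cells and 64.6 RPKM in Suz12-KO cells, with log2 changes of 6.97 in WT and 6.56 in Suz12-KO. The naive list had a median change of -1.88 in WT and -2.32 in Suz12-KO. Some genes had unlike changes, and these were picked out after their values were seen. Arg1 had a change of 3.15 in WT and 0.60 in Suz12-KO. Crabp2 had 2.29 in WT and 4.65 in Suz12-KO, and Mest, an imprinted gene, 0.35 in WT and 2.69 in Suz12-KO. Whether these differences exceed the spread between cultures could not be tested with 1 column per group.

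**Figure D5:**
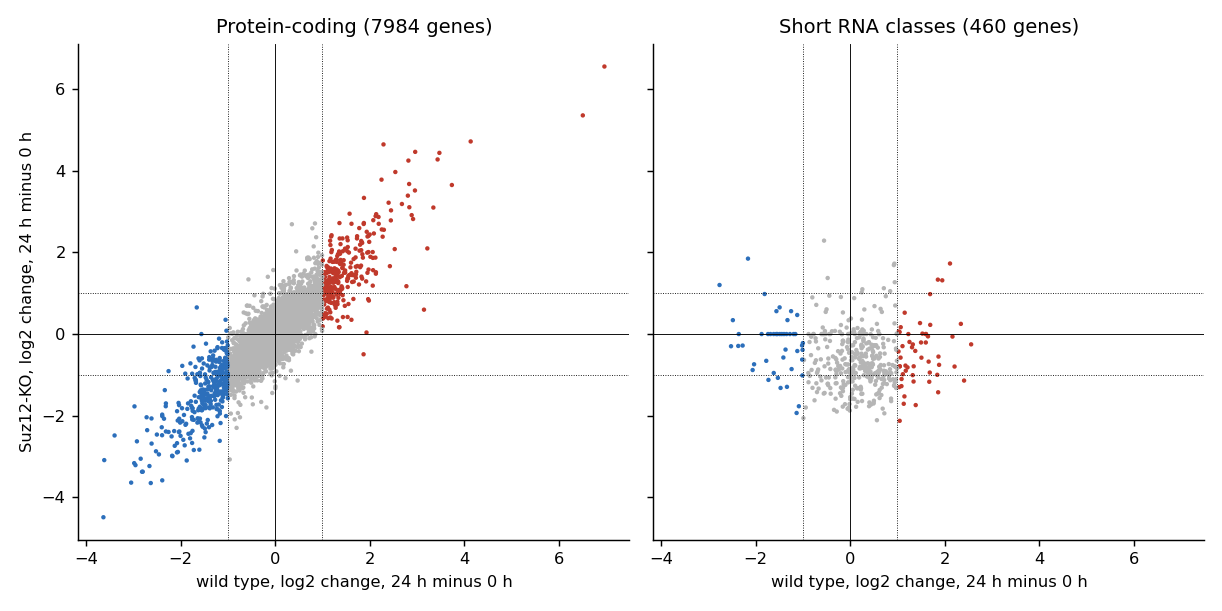
The log2 change, 24 h minus 0 h, in WT cells (horizontal axis) and Suz12-KO cells (vertical axis) for 7984 protein-coding genes and for 460 genes of short RNA classes, with red and blue for genes at least 2-fold higher or lower in WT cells and dotted lines at 2-fold. Protein-coding genes lie along the rising diagonal (Pearson correlation 0.87), and the short RNA genes do not (-0.07).

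The short RNA classes behaved unlike the protein-coding genes. The median change of 54 kept small nuclear RNA genes was 0.91 in WT and -0.85 in Suz12-KO. In WT cells 21 of the 54 were higher and 3 lower, where 4.21% of all kept genes were higher and 4.71% lower. The 207 kept small nucleolar RNA genes had medians of 0.20 in WT and -0.79 in Suz12-KO. Over 460 genes of all short classes the changes of both lines had a Pearson correlation of -0.07. Of 18 genes at least 2-fold apart in opposite directions in the lines, 14 were of these classes, 4 have no current annotation and 0 were protein-coding. Some of the 18 rest on few reads, such as Mir23b with 0 at 24 h and 3 at 0 h in WT cells. Others rest on more, such as Gm25203 with 864 at 24 h and 261 at 0 h. The short classes made up 460 of the 8790 kept genes. Per the labels' protocols, RNA under 200 nt was removed by a column before library preparation, so that the reads of these genes also depend on how much of that RNA stayed, and this part was not tested. Short classes took 2.94% of all reads in WT cells at 24 h and 1.77% at 0 h, and in the knock-out line 3.12% at 24 h and 2.94% at 0 h. The kept small nuclear RNA genes had a median of 17 reads over both WT columns and the 102 microRNA genes a median of 9 reads, against 591 reads for protein-coding genes.

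The DR5 element described at the outset was rare in promoters. It was found in 31 of 27025 genes with a RefSeq promoter (0.115%), in 4 of the 6375 protein-coding genes kept here that had one (0.0627%), in 2 of the 223 that were higher and in 0 of the 258 that were lower. The 2 were Cyp26a1 and Rarb. The other kept genes with a DR5, also named after their values were seen, were Blvrb, with a log2 change of 0.24, and Gm4631, with -0.78. A DR2, with 2 bases between the core motifs, was found in 1 promoter of a higher gene, that of Casd1, named after its values were seen, and in 0 promoters of lower genes. A gene could have more than 1 promoter: the 223 higher genes had 309, the 258 lower genes 351 and the 6375 kept protein-coding genes 8075. The single core motif AGGTCA on either strand stood in at least 1 promoter of 15.7% of the higher genes and 22.5% of the lower genes. Among all kept protein-coding genes with a promoter the share was 14.2%. These are shares of genes and do not allow for the number of windows per gene. A window without the motif says only that these letters are not in it. Promoters of the changed genes were somewhat poorer in CpG, with a median observed over expected ratio of 0.697 in higher genes and 0.637 in lower genes, against 0.799 in all kept protein-coding genes.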

How the data were processed

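RNA of 16 samples (8 groups of 2) was measured by sequencing of rRNA-depleted total RNA, and 2 groups, WT 24 h and WT 0 h, make up the comparison. Per the submitters' processing notes, TopHat, featureCounts and DESeq2 were used with GRCm38 (mm10). The authors deposited RPKM values, 1 column per group, with Ensembl release 72 gene IDs. The sources used here do not say how replicates were pooled, and the authors' TRUE or FALSE marks for 72 h were not used.

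Whole reads were recovered from the RPKM steps: each of the 153803 non-zero values lay within 0.01 of a whole read, with annotated exon lengths for 13715 genes and lengths from the steps for 10737. Column totals ran from 24731176 to 32153765 reads. Reads served for exact Poisson intervals of levels, Clopper-Pearson intervals of ratios and a floor of 3 reads. RPKM were divided by median-of-ratios factors over 14657 genes above 0 in all 8 columns, and 0.5 was added before log2. No count model was run, since no group has replicates in the table. The functions were tested on simulated data. Symbols and classes came from GENCODE M21 through gene IDs, 595 of which have no current entry. Promoters came from RefSeq and were matched by symbol (6450 of 8790 genes). Tools were Python 3.11.15, numpy and scipy.

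The comparison and its 33 gene lists were chosen with earlier results of these data known, so directions of lists are not independent evidence. Named genes were the list members used as examples, the 3 markers, and the 15 protein-coding and 5 long non-coding genes with the largest and smallest changes among those with at least 50 reads in both columns together. Alternatives were 4 other scalings, 2 pseudocounts and 4 filters. A few genes that the rule takes in are not reported here.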

Additional observations from a re-analysis of the deposited data

Results flagged for a closer look

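Each result here went one way between 24 h and 0 h in WT cells and the other way in Suz12-KO cells. With 1 pooled column per group the differences were not tested. The median log2 change of small nuclear RNA genes was 0.91 in WT and -0.85 in Suz12-KO, and that of ribosomal RNA genes 0.14 in WT and -1.47 in Suz12-KO. Among single short RNA genes, Gm25203 had 1.09 in WT cells (864 reads at 24 h and 261 at 0 h) and -1.10 in Suz12-KO cells (570 reads at 24 h and 867 at 0 h). Gm26316 had 1.34 in WT and -1.16 in Suz12-KO.

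Of the protein-coding genes at least 2-fold apart in WT cells, 1 of 296 higher and 3 of 341 lower had the opposite sign in the knock-out. Aqp3, a water and glycerol channel, had 1.87 in WT and -0.50 in Suz12-KO. Epha4, an ephrin receptor, had -1.66 in WT and 0.65 in Suz12-KO, Lima1 had -1.05 in WT and 0.35 in Suz12-KO, and Crmp1 had -1.03 in WT and 0.082 in Suz12-KO. On RPKM as deposited Aqp3 had 2.31 in WT and 0.02 in Suz12-KO, so its opposite sign depends on the scaling.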

How the results depend on the processing

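No paired analysis was possible because the table holds 1 pooled column per group, and no replicate was left out for the same reason. The counts of 370 higher and 414 lower genes became 833 and 187 on RPKM as deposited. The higher count became 564 with 0.1 RPKM added and 225 with 1 RPKM added, and with at least 5 RPKM required the counts were 96 higher and 159 lower, over fewer genes. Over all kept genes 65.4% of those higher in WT were higher in the knock-out too, against 56.9% with no filter, 73.0% with at least 20 reads and 78.4% in protein-coding genes. For lower genes the share was 63.5%, against 51.4% with no filter, 70.4% with at least 5 RPKM, 70.7% with at least 20 reads and 71.0% in protein-coding genes. The cause was not tested. Of 109 kept genes of the lists and extremes, taken because they were at least 2-fold apart or among the largest and smallest changes, 0 reversed under 6 other scalings and pseudocounts. This was fixed by the choice of genes and is no support. The scalings shift a log2 ratio by at most 0.52, and the same pseudocount added to both levels cannot change a sign. Genes nearer 0 were not among the 109, and several of those named change sign on RPKM as deposited, such as Lin28a, Dppa2, Ezh2, Rara and Gdf3. Of 32 list medians, 10 change sign over the scalings. Counting depth limits genes with few reads at 0 h, whose ratios have wide intervals.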
